A study of Mus musculus with 16 samples.

Results

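The annulus fibrosus (AF), the ring of collagen lamellae that encloses the core of the intervertebral disc, was compared between Sirt6 cKO and Sirt6 fl/fl mice at 24 months of age on 4 arrays per genotype. The cKO mice carried Sirt6 fl/fl with AcanCreERT2, a Cre recombinase that tamoxifen activates in cells expressing aggrecan, and their fl/fl littermates carried the floxed alleles without Cre. Both genotypes received tamoxifen as young adults, and all animals were males on a mixed C57BL/6J, 129S and FVB/NJ background. The driver acts in the nucleus pulposus (NP), AF and endplate alike, so cells outside the annulus were targeted too, and annulus cells that do not express aggrecan were not. Each array carried AF tissue pooled from lumbar and caudal discs of 1 animal, and the study accepted partly degraded RNA, with a low limit on the RNA integrity number. The NP of the same design, on 4 arrays per genotype, was used only to set AF differences beside those of the other tissue.

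The genes described are those whose log2 signal exceeded by at least 1 unit the median signal of 23 background probe sets of the same array, on at least 4 of the 8 AF arrays and without regard to genotype. Of 19505 genes with a symbol, 16665 entered the fit and 3537 of these (21.2%) met this rule and are called detected below. Of the detected genes, 922 were over background on all 8 arrays and 863 on exactly 4. A gene could enter through 1 genotype alone. On 4 cKO and no fl/fl arrays there were 13 detected genes, and on 4 fl/fl and no cKO arrays 11. At the border of the rule, the fourth highest array of Pate11 and of Clip4 lay 1.00 above background, and that of Sec62 and of Olfr767 rounded to the same 1.00 but fell short.

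SIRT6 is a nuclear enzyme that uses NAD to remove acetyl groups from histone H3 and thereby closes chromatin. In mice it is known to hold down glycolytic genes as a corepressor that opposes the hypoxia-inducible factor HIF-1, to take part in DNA repair and to restrain NF-kB target genes. The annulus is laid down by fibrochondrocyte-like cells that secrete type I collagen in the outer lamellae and more type II collagen and aggrecan toward the core, and tendon regulators such as Mkx and Scx mark its outer cells.

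The arrays measured the annulus unevenly. Of 27 fitted annulus and tendon-lineage genes, 4 were detected (Sparc, Angptl7, Fn1 and Mkx) and 11, among them Scx, Thbs4 and Cilp2, were over background on no array. Mkx, a homeobox regulator of tendon and outer annulus, had log2 signals of 5.52, 6.87, 6.05 and 5.91 in cKO and 6.49, 6.08, 5.84 and 6.32 in fl/fl. Sparc, a collagen-binding matrix protein, had 4.92, 6.68, 8.87 and 9.999 in cKO and 5.45, 11.55, 5.93 and 12.17 in fl/fl, a range of more than 6 log2 units within the fl/fl group. Of 24 fitted cartilage matrix genes 16 were detected, Acan, Col9a1, Col9a3 and Col11a2 on all 8 arrays. Of the tendon and outer annulus regulators, Mkx was thus detected and Scx was not. Exon control probe sets (1324) were hardly separated from intron control probe sets (5222), with an area under the curve of 0.424, 0.484, 0.457 and 0.520 on cKO arrays 1 to 4 and 0.492, 0.494, 0.453 and 0.502 on fl/fl arrays 1 to 4, where 0.5 is no separation. The part of this in the results was not tested.

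Array 1 of the cKO group stood apart from the other 7. Across detected genes it correlated at 0.491 with the average of the remaining AF arrays, against 0.697 to 0.806 for the others, and it held 66 detected genes at least 2 log2 units above every other array and 15 at least 2 units under every other array. Each array came from a separate animal, so the p-values measure the spread between animals together with that of dissection and array. In bulk tissue, fewer cells of a type and less RNA per cell cannot be told apart.

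The Sirt6 probe set read 3.39, 4.38, 4.89 and 4.12 on cKO arrays, against 4.57, 4.59, 4.49 and 5.13 on fl/fl arrays. Arrays 1, 2 and 4 of cKO lay under the fl/fl range and array 3 inside it. The log2 difference was -0.50, within the spread of the arrays by a two-sided exact permutation test (p = 0.2, the smallest possible being 0.0286), and it was -0.23 without cKO array 1. Without cKO array 3 it was -0.73, at the exact permutation p of 0.0286 that is the smallest for 3 against 4 arrays. The probe set was over background on 0 of 8 arrays, and whether it covers the floxed part of the gene is unknown here, so its signal is no check on genotype.

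Genes that were higher in cKO annuli at the thresholds of the study (unadjusted p of at most 0.05 and a log2 difference of at least 0.81 in size) included Adgrd1, an adhesion receptor, Sap30bp, a nuclear protein, and Sec61g, a component of the protein translocation channel. Genes that were lower included Cdh2 (N-cadherin), the glycolytic enzyme Aldoa and the glycogen regulator Ppp1r3c. Of the 3537 detected genes, 165 (4.66%) passed these thresholds, 108 higher and 57 lower in cKO, where over all 16665 genes 3.54% passed (1.97% higher and 1.57% lower). No gene passed correction. By limma, 0 genes had an adjusted p under 0.05, the lowest being 0.984, and SAM called 0. Before adjustment 667 genes (4%) had a p under 0.05, of which 176 were detected. "Higher" and "lower" therefore describe these arrays at an unadjusted threshold. In 74 of the 165, 1 genotype was over background on at most 1 array, so the rule of detection itself let in genes that differ. Among the 922 genes over background on all 8 arrays, to which this does not apply, 24 (2.6%) passed, 15 higher and 9 lower.

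The share of higher genes depended on scaling and on single arrays. Of the genes past the thresholds 65.5% were higher on the deposited scale (165 genes) and 63.7% with each array centred on its median (168 genes), but 49.7% (83 higher and 84 lower) after quantile normalization. Without cKO array 1, 209 detected genes passed, 174 higher and 35 lower. Without cKO array 4 there were 198, 114 higher and 84 lower, and without fl/fl array 1 there were 140, of which 52.1% were higher. The count was 266 without fl/fl array 3. Of the 165 genes, 54 passed whichever single array was left out (36 higher and 18 lower), and the 24 genes described first (12 in each direction) were all among them. Those 24 were chosen for their low p on the same arrays, so that they were kept is no independent support.

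**Figure D1:**
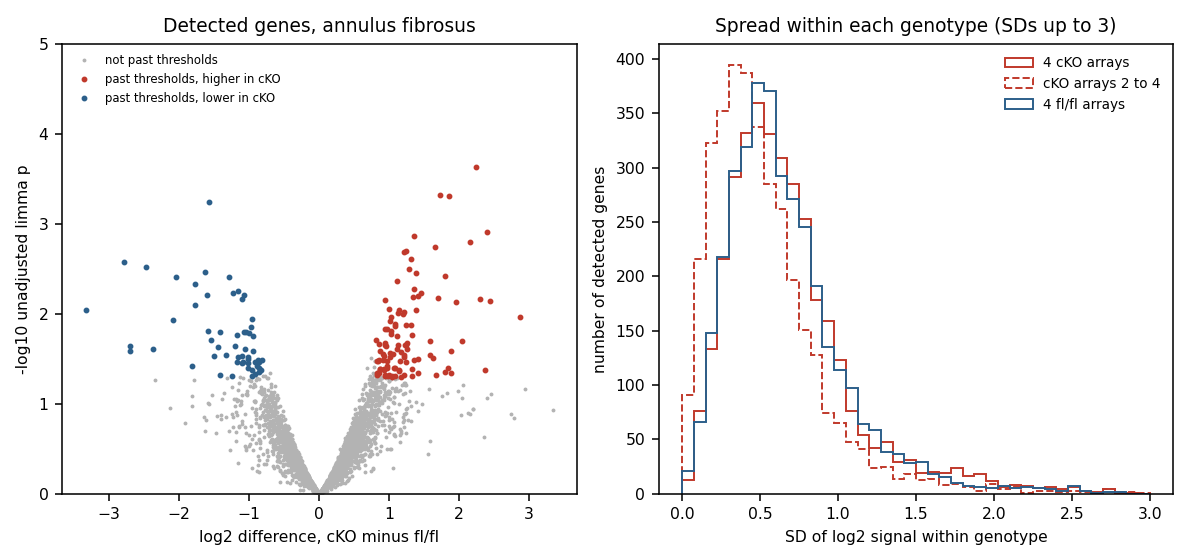
Left, each of the 3537 detected genes by its log2 difference (cKO minus fl/fl, horizontal axis) and the negative log10 of its unadjusted limma p (vertical axis), with the 108 higher and 57 lower genes past the thresholds in color. Right, the number of detected genes by the SD of their log2 signal over 4 cKO arrays, over cKO arrays 2 to 4 and over 4 fl/fl arrays. The median SD was 0.60 in cKO and 0.59 in fl/fl, and 0.45 over cKO arrays 2 to 4.

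Tra2b, which encodes a splicing activator that binds exonic enhancers, had the lowest p among the higher genes. It read 6.57, 7.31, 6.34 and 7.74 in cKO and 4.72, 4.96, 3.79 and 5.52 in fl/fl, and each cKO array lay above each fl/fl array. It was over background on all cKO arrays and not above background on any fl/fl array, so that it was at least 2.34-fold higher in cKO. Such a bound sets the mean of the genotype with signal against the mean, in the other genotype, of the higher of the gene's own signal and the lowest signal above background on each array. It allows for the limit of detection and not for the spread between animals. It therefore describes the means of these arrays and is no lower confidence limit. Of 24 genes measured in 1 genotype alone, 21 passed the thresholds, against 3.54% of all fitted genes. That most passed largely follows from their selection, since signal in 1 genotype alone sets the groups apart. Of the 21, 4 had a bound that reached the fold threshold, and each gene given a bound here had an adjusted p of 0.984 by limma. Srek1ip1, named for its interaction with the splicing regulator SREK1, read 6.67, 6.72, 5.98 and 6.58 in cKO and 5.15, 5.29, 5.46 and 5.18 in fl/fl. It was not above background on any fl/fl array and was at least 1.65-fold higher in cKO. Prpf31, a component of the U4/U6.U5 small nuclear ribonucleoprotein, read 6.93, 7.04, 7.90 and 6.76 on cKO arrays, against 5.37, 5.26, 6.16 and 6.31 on fl/fl arrays, with no overlap (log2 difference 1.38 ± 0.39, SE, n = 4 each).

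Adgrd1, an adhesion G protein-coupled receptor, had the widest gap between the genotypes among detected genes other than predicted ones. Its log2 signals were 8.68, 7.24, 7.62 and 7.0 in cKO and 5.75, 6.12, 5.84 and 5.39 in fl/fl, so that 0.88 log2 units separated the lowest cKO from the highest fl/fl array (log2 difference 1.86 ± 0.40). Zfp992, a zinc finger gene, read 7.96, 7.99, 9.64 and 8.03 in cKO and 5.12, 5.35, 5.86 and 7.73 in fl/fl. The fl/fl array 4 lay just under the lowest cKO array (log2 difference 2.39 ± 0.58). Pdcd5, a protein linked to programmed cell death, read 7.38, 7.21, 5.97 and 6.03 on cKO arrays, against 4.57, 4.92, 4.83 and 5.66 on fl/fl arrays, and Hephl1, a copper-dependent ferroxidase, 6.11, 6.98, 6.26 and 6.49 in cKO and 5.16, 5.01, 5.25 and 5.41 in fl/fl. Both were over background on every cKO array and on no fl/fl array. Pdcd5 was at least 1.84-fold and Hephl1 at least 1.62-fold higher in cKO.

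Sap30bp, a nuclear protein that binds the SAP30 subunit of the Sin3 histone deacetylase complex, was over background on all 8 arrays. It read 7.78, 7.41, 7.42 and 7.71 in cKO and 6.42, 5.86, 5.85 and 6.95 in fl/fl, an SD of 0.19 in cKO and 0.53 in fl/fl, and the genotypes did not overlap (log2 difference 1.31 ± 0.35). Sec61g, the gamma subunit of the channel through which secreted proteins enter the endoplasmic reticulum, read 9.19, 7.94, 6.31 and 7.83 on cKO arrays, against 5.73, 6.13, 5.88 and 6.35 on fl/fl arrays. On cKO array 3 it lay just under fl/fl array 4, so the genotypes overlapped (log2 difference 1.80 ± 0.51). Rnpepl1, an aminopeptidase-like protein, read 7.17, 6.14, 6.82 and 5.95 in cKO and 5.36, 5.21, 5.30 and 5.07 in fl/fl, not above background on any fl/fl array and at least 1.69-fold higher in cKO. The remaining higher genes of this rank were Olfr770, an olfactory receptor gene (log2 difference 2.16 ± 0.54), and Defa25, an intestinal defensin gene (log2 difference 1.12 ± 0.32), both without overlap.

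Among the lower genes, Alg13, which encodes a subunit of the transferase for the second sugar of N-glycan precursors, had the lowest p. It read 4.62, 4.54, 5.04 and 5.46 in cKO and 6.92, 6.10, 6.36 and 6.60 in fl/fl, was over background on every fl/fl array and on no cKO array, and was at least 1.69-fold lower in cKO. Cyb5r3, the cytochrome b5 reductase of membranes, read 4.96, 5.42, 7.89 and 7.39 on cKO arrays, against 9.65, 10.53, 7.30 and 9.32 on fl/fl arrays. The differences among arrays were large in both genotypes (SD 1.44 in cKO and 1.37 in fl/fl), cKO arrays 3 and 4 lay above fl/fl array 3, and the mean log2 difference was -2.79 ± 0.74. Eif4a1, the RNA helicase of cap-dependent translation initiation, read 4.57, 5.79, 5.47 and 5.41 in cKO and 6.37, 7.15, 6.28 and 6.60 in fl/fl, not above background on any cKO array and at least 1.81-fold lower there. Cdh2, the N-cadherin of notochordal and mesenchymal cells, read 5.53, 6.47, 5.52 and 5.88 in cKO and 6.66, 7.47, 6.86 and 7.05 in fl/fl, with no overlap (log2 difference -1.16 ± 0.35).

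Hoxc10, a posterior homeobox gene that marks lumbosacral and caudal levels, read 3.77, 4.34, 4.89 and 5.65 on cKO arrays, against 7.21, 5.77, 6.21 and 6.01 on fl/fl arrays. Usp8, a deubiquitinase of endosomal receptor sorting, read 5.25, 5.60, 4.28 and 5.70 in cKO and 6.15, 6.60, 6.48 and 6.53 in fl/fl. Neither was above background on any cKO array, and Hoxc10 was at least 1.48-fold and Usp8 at least 1.62-fold lower in cKO. Rps27l, a ribosomal protein paralog known as a p53 target, read 6.14, 4.77, 6.20 and 7.36 in cKO and 8.18, 7.18, 8.64 and 7.57 in fl/fl, where cKO array 4 exceeded fl/fl array 2 (log2 difference -1.77 ± 0.52). Near-identical sequence in Rps27 makes the assignment of its signal uncertain. Sgip1, an endocytic adaptor, and Fubp1, a single-strand DNA-binding regulator of Myc, were not above background on any cKO array and were at least 1.25-fold and at least 1.69-fold lower in cKO. Sprr2j-ps, a pseudogene of the cornified envelope family, differed by -2.05 ± 0.58.

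**Figure D2:**
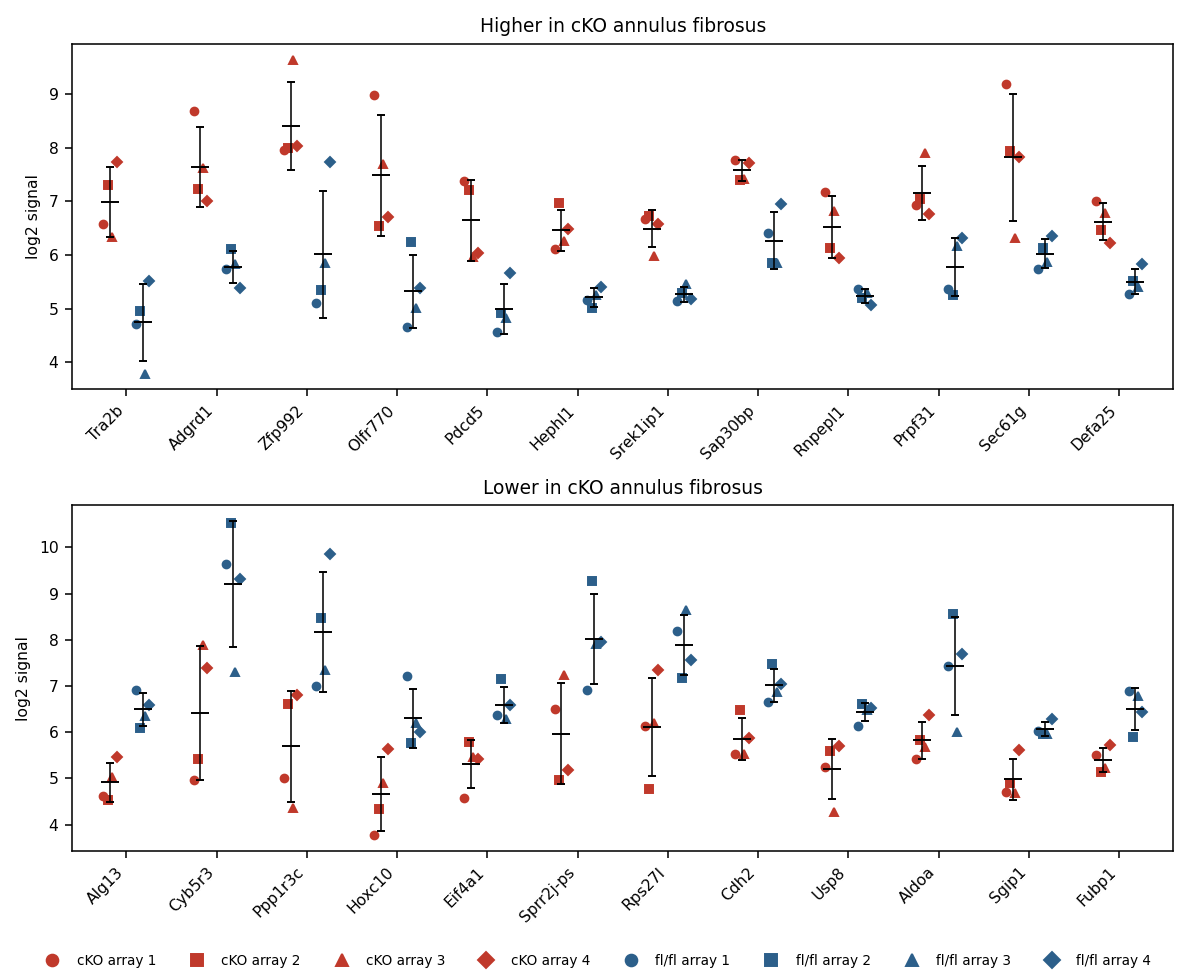
Log2 signal (vertical axis) on each of the 8 AF arrays for the 12 higher and 12 lower detected genes with the lowest p, cKO to the left of fl/fl for each gene. Black bars are the mean and SD over 4 arrays. Alg13 lay between 4.54 and 5.46 in cKO and between 6.10 and 6.92 in fl/fl, whereas Cyb5r3 and Sec61g overlapped.

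Genes over background on all 8 arrays give the comparison that the detection rule disturbs least. The 5 given here (Psph, Clta, Cops8, Anxa8 and Nap1l1) were chosen after their values were seen. Psph, the last enzyme of serine synthesis, read 11.999, 12.23, 11.21 and 12.06 on cKO arrays, against 10.15, 10.75, 11.48 and 10.79 on fl/fl arrays, where only fl/fl array 3 reached the cKO range (log2 difference 1.08 ± 0.38, and 0.89 and no longer past the thresholds after quantile normalization). Clta, a clathrin light chain, read 6.27, 5.87, 7.0 and 6.89 in cKO and 7.29, 7.84, 7.76 and 7.15 in fl/fl without overlap (log2 difference -1.0 ± 0.36, and -0.79 and no longer past the thresholds without cKO array 2). Cops8, a subunit of the COP9 signalosome, read 5.74, 7.15, 6.02 and 6.10 in cKO and 7.20, 7.74, 7.53 and 6.83 in fl/fl, and Anxa8, an annexin, read 7.47, 7.25, 6.60 and 7.94 on cKO arrays, against 7.69, 11.89, 9.19 and 8.82 on fl/fl arrays, with cKO overlapping fl/fl in both. Nap1l1, a histone chaperone, differed by -2.71 ± 1.07, and the fl/fl arrays spread from 6.98 to 13.19 and the cKO arrays from 6.14 to 9.72. Nap1l1 was not past the thresholds without cKO array 1 or 4 or fl/fl array 1, 2 or 4 (-2.61 to -1.84). Sap30bp, Vegfa, Ube2r2, Cycs, Eif4b and Rpl5 also belong to this class.

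Over all detected genes the genotypes differed by little beside their spread. The difference was positive for 1959 detected genes (55.4%), against 50.7% of all fitted genes, and for 49.4% of detected genes after quantile normalization. The median absolute log2 difference was 0.321 and the median SD within a genotype about 0.6. In 12.7% of detected genes the difference exceeded both SDs, against 13.1% of all fitted genes. The genotypes did not overlap for 88 detected genes (2.49%, 65 higher and 23 lower), against 2.61% of all fitted genes (1.43% higher and 1.18% lower), a share no higher than the background. An SD above 1 log2 unit was seen for 15.7% of detected genes in cKO and 15.4% in fl/fl. Pairs of cKO arrays correlated across detected genes at a median of 0.556 (0.410 to 0.714), pairs of fl/fl arrays at 0.583 (0.544 to 0.668) and pairs of 1 cKO and 1 fl/fl array at 0.636 (0.355 to 0.675), values that share arrays and are given as a description.

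Fuel metabolism was of interest because SIRT6 is known in mice as a corepressor of HIF-1 at glycolytic genes. The median over the detected members of each list is given with its lowest and highest value when 1 array was left out. It does not stand for the whole list. Over all fitted members the median was -0.14 for glycolysis and hypoxia, -0.08 for translation factors and -0.67 for NP and notochord genes, nearer 0. For cartilage matrix genes it was 0.19, farther from 0. Of 33 fitted glycolysis and hypoxia response genes 10 were detected, 8 with negative and 2 with positive differences (median log2 difference -0.61, -0.85 without cKO array 4 and -0.22 without fl/fl array 4, against a median of 0.06 over all detected genes), and 1 was past the thresholds in each direction. Aldoa, the muscle-type fructose-bisphosphate aldolase of glycolysis, read 5.42, 5.82, 5.69 and 6.37 in cKO and 7.44, 8.55, 6.0 and 7.70 in fl/fl. Only fl/fl array 3 fell within the cKO range (log2 difference -1.60 ± 0.49). Vegfa, the secreted angiogenic factor induced by hypoxia, went the other way at 7.18, 7.39, 7.62 and 7.25 in cKO and 6.39, 6.14, 6.09 and 7.06 in fl/fl. The genotypes did not overlap (log2 difference 0.94 ± 0.33, and an unadjusted limma p of 0.291, not past the thresholds, in 1 fit over the 16 AF and NP arrays). Slc2a1, the glucose transporter GLUT1, had an unadjusted limma p of 0.101 and read 4.38, 5.53, 5.43 and 8.82 on cKO arrays, against 7.97, 7.87, 5.53 and 9.08 on fl/fl arrays, where cKO array 4 was as high as the fl/fl arrays. Its log2 difference was -1.58 over all arrays and -2.50 without cKO array 4, which was past the thresholds, as was -2.27 without fl/fl array 3. Tpi1, triosephosphate isomerase, and Pfkm, a phosphofructokinase, had unadjusted limma p-values of 0.0925 and 0.0967.

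Among glycogen genes, a targeting and a catalytic subunit of protein phosphatase 1 were lower and glycogen synthase was higher. Of 22 fitted genes for glycogen and protein phosphatase 1, 8 were detected, and 2 were lower and 1 higher past the thresholds (median log2 difference -0.07, -0.37 without cKO array 2 and 0.12 without fl/fl array 2). Ppp1r3c, the subunit that brings protein phosphatase 1 to glycogen and favors its synthesis, read 5.01, 6.61, 4.36 and 6.80 in cKO and 6.99, 8.47, 7.34 and 9.86 in fl/fl. Every cKO array lay under every fl/fl array (log2 difference -2.47 ± 0.67). Ppp1cc, a catalytic subunit of the same phosphatase, read 6.30, 5.34, 6.38 and 5.24 in cKO and 8.15, 9.07, 6.77 and 6.35 in fl/fl, where cKO array 3 just exceeded fl/fl array 4 (log2 difference -1.77 ± 0.56). Gys1, glycogen synthase, was higher at 5.78, 7.44, 6.84 and 6.41 on cKO arrays, against 5.87, 5.16, 6.03 and 5.38 on fl/fl arrays. It overlapped and was not past the thresholds without cKO array 2 or 3 or fl/fl array 2 or 4 (log2 difference 1.01 ± 0.40, 0.73 to 0.93 without these).

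The promoters of Aldoa and Ppp1r3c are printed because both genes were lower in cKO and because HIF binds a short core at its targets. Each run covers 300 bases of the minus strand from RefSeq (GRCm38.p6) around a transcription start, most of them before it. Capitals mark the HIF core letters ACGTG or GCGTG on either strand, with reverse complements CACGT and CACGC. For Aldoa (chr7:126799129-126799428) 2 of 3 listed promoters held a match, and 1 of them is shown. For Ppp1r3c (chr19:36736555-36736854) the table lists 1.
Aldoa: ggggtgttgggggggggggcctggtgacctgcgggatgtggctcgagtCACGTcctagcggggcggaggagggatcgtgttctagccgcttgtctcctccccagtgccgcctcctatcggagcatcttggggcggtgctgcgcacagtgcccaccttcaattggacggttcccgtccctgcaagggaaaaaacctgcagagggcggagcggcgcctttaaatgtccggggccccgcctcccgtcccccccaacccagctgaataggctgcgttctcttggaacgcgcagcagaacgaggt
Ppp1r3c: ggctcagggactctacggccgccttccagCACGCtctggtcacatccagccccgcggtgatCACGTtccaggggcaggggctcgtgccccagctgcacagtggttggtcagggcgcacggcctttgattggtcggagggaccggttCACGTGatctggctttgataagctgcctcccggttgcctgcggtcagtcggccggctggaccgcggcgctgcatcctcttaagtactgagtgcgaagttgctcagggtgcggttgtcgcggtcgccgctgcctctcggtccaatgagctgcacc
The run of Aldoa held 1 match and that of Ppp1r3c 4, 2 of them overlapping in the palindrome CACGTG. Among all 32851 RefSeq promoters, 43.8% held at least 1 match, so a match is common and describes the letters only. Vegfa, which was higher in cKO, has 2 listed promoters, with 0 matches in the upstream one and 2 in the other. The most upstream promoter of Aldoa also held 0 matches.

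Of 72 fitted genes of the respiratory chain 28 were detected, 15 with positive and 13 with negative differences (median log2 difference 0.15, -0.24 without cKO array 4 and 0.37 without cKO array 1), and 3 were higher and none lower at the thresholds. Cox5b, a nuclear-encoded subunit of cytochrome c oxidase, read 7.36, 7.27, 6.69 and 7.07 in cKO and 6.11, 6.49, 5.45 and 6.30 in fl/fl without overlap (log2 difference 1.01 ± 0.34, and 0.80 and no longer past the thresholds without fl/fl array 3). Sdhc, a membrane anchor of succinate dehydrogenase, read 6.04, 6.21, 6.24 and 6.05 in cKO and 5.21, 5.39, 5.64 and 5.07 in fl/fl. It was not above background on any fl/fl array and was at least 1.29-fold higher in cKO. Its measured log2 difference of 0.81 ± 0.30 lay at the fold threshold and fell short of it without cKO array 2 or 3 or fl/fl array 1 or 4 (0.72 to 0.78) and after quantile normalization (0.79). Cycs, cytochrome c, read 10.24, 8.21, 8.0 and 9.51 on cKO arrays, against 6.68, 8.56, 8.26 and 7.01 on fl/fl arrays, with overlap (log2 difference 1.36 ± 0.57). It was not past the thresholds without cKO array 1 or 4 or fl/fl array 1 or 4 (0.94 to 1.19), and was 0.47 without cKO arrays 1 and 4 together.

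Protein synthesis genes mostly had negative differences, but their size changed with single arrays. Of 56 fitted cytosolic ribosomal protein genes 47 were detected, of which 33 had negative and 14 positive differences (median log2 difference -0.60, -1.02 without cKO array 4 and -0.15 without cKO array 1), and 1, Rpl5, was past the thresholds. The mean over the 47 was 6.70, 8.05, 7.80 and 9.38 on cKO arrays 1 to 4 and 8.22, 9.50, 6.88 and 9.33 on fl/fl arrays 1 to 4, so that the lowest cKO and the lowest fl/fl array lay side by side. Without cKO array 1 there were 25 negative and 22 positive differences, and without cKO array 4 there were 11 genes lower past the thresholds, and 12 without fl/fl array 3. Rpl5, a large-subunit protein that binds 5S ribosomal RNA, read 7.0, 8.68, 8.45 and 9.07 in cKO and 10.92, 8.27, 9.39 and 9.59 in fl/fl (log2 difference -1.24 ± 0.57). It was not past the thresholds without any one of cKO arrays 1, 2 and 3 or fl/fl arrays 1, 3 and 4 (-1.37 to -0.78). Rps7, a small-subunit protein, read 7.07, 8.98, 9.63 and 10.15 in cKO and 12.68, 13.18, 7.17 and 12.20 in fl/fl, 3 fl/fl arrays above all cKO arrays and fl/fl array 3 among the lowest (log2 difference -2.35, and -3.73 without fl/fl array 3 and -2.75 without cKO array 4, both past the thresholds). Ribosomal protein genes have many processed pseudogenes, so their signals may be shared.

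Translation factors were split. Of 15 detected initiation and elongation factors 10 had negative differences (median log2 difference -0.45, -0.71 without cKO array 4 and -0.08 without cKO array 1), and 1 was past the thresholds in each direction. Beside Eif4a1, given above as lower, Eif4b, the RNA-binding cofactor of that helicase, was higher at 6.44, 8.31, 7.56 and 6.99 on cKO arrays, against 6.22, 6.89, 6.64 and 5.81 on fl/fl arrays. This difference of 0.94 ± 0.43 overlapped between the genotypes. It was lost without cKO array 2, 3 or 4 or fl/fl array 1, 3 or 4 (0.61 without cKO array 2) and after quantile normalization (0.93). Eif2b2, a subunit of the exchange factor for eIF2, was at an unadjusted limma p of 0.0649. The splicing list held 18 detected genes, 9 of each sign (median log2 difference 0.02, -0.31 without cKO array 4 and 0.23 without cKO array 1, and -0.09 after quantile normalization), with Tra2b and Srek1ip1 higher past the thresholds and none lower. With 1 array left out, up to 4 members were higher past the thresholds (without cKO array 1) and up to 1 lower (without cKO array 4). These counts hold for the list alone. Outside it, and chosen after their values were seen, Prpf31, given above, and Ptbp2 (log2 difference 1.58 ± 0.64) were higher past the thresholds. Snrnp48 (-1.20 ± 0.46) was lower past them, without overlap. Of these only Prpf31 stayed past the thresholds whichever single array was left out.

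**Figure D3:**
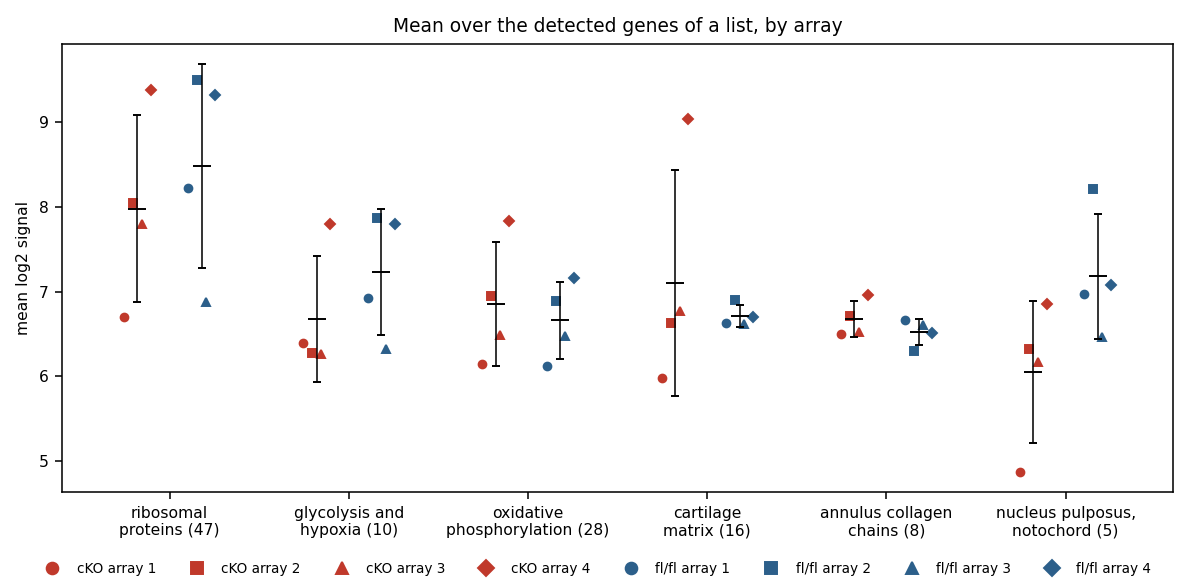
Mean log2 signal (vertical axis) over the detected genes of 6 lists on each AF array, with the number of genes in brackets and cKO to the left of fl/fl. Black bars are the mean and SD over 4 arrays. Cartilage matrix genes averaged 9.04 on cKO array 4 and between 5.97 and 6.90 on the other 7 arrays, and NP and notochord genes had their lowest value, 4.87, on cKO array 1. Not every cartilage matrix gene was raised on cKO array 4.

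Collagens and proteoglycans, the fabric of the annulus, held no gene past the thresholds among the detected members of their lists. Of 16 fitted collagen chains of annulus lamellae 8 were detected, 6 with positive and 2 with negative differences (median log2 difference 0.04, -0.11 without fl/fl array 2 and 0.29 without cKO array 1). Col16a1, a fibril-associated collagen, came nearest at an unadjusted limma p of 0.0538. It read 8.18, 7.33, 7.55 and 7.36 in cKO and 6.46, 7.31, 7.14 and 6.52 in fl/fl, without overlap, a log2 difference of 0.75 over all arrays and of 0.90, past the thresholds, without fl/fl array 2. Col1a1, the main chain of type I collagen, read 6.98, 6.77, 5.76 and 8.14 in cKO and 6.79, 5.57, 6.30 and 6.19 in fl/fl, with cKO array 4 highest and cKO array 3 among the lowest. Its log2 difference was 0.70 over all arrays and 1.09, past the thresholds, without cKO array 3.

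Some cartilage genes set 1 animal apart, and others of the same list did not. Col9a1 (6.37), Col9a3 (9.60), Col11a2 (6.44), Sox9 (5.80) and Sox5 (7.47) lay on cKO array 4 within the range of the other arrays. On cKO array 4, Cytl1, a secreted protein of chondrocytes, read 17.61, against 6.67, 9.13 and 7.41 on cKO arrays 1 to 3 and 6.22 to 9.86 in fl/fl. Cnmd, the antiangiogenic chondromodulin, read 15.73 there, against 4.74, 6.46 and 5.87 on the other cKO arrays and 4.98 to 5.97 in fl/fl. Chad, a leucine-rich protein of cartilage matrix, read 14.15, against 4.37, 4.71 and 7.77 on the other cKO arrays and 4.46 to 7.33 in fl/fl. Acan, the large aggregating proteoglycan, read 10.35 on this array, 6.08 to 6.52 on the other cKO arrays and 6.54 to 7.05 in fl/fl, and Dcn, decorin, read 10.92, against 5.42 to 6.98 on the other cKO arrays and 3.71 to 8.13 in fl/fl. With all arrays the log2 differences were 2.36 for Cytl1, 2.78 for Cnmd, 1.56 for Chad and 0.62 for Acan. Without cKO array 4 they were -0.11 for Cytl1, 0.27 for Cnmd, -0.58 for Chad and -0.39 for Acan. Of 16 detected cartilage matrix genes 9 had positive differences with all arrays (median 0.05) and 6 without cKO array 4 (median -0.22), and the median was -0.03 after quantile normalization. None was past the thresholds with all arrays, and 3 were higher past them without cKO array 1, Cnmd among them (log2 difference 3.93).

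**Figure D4:**
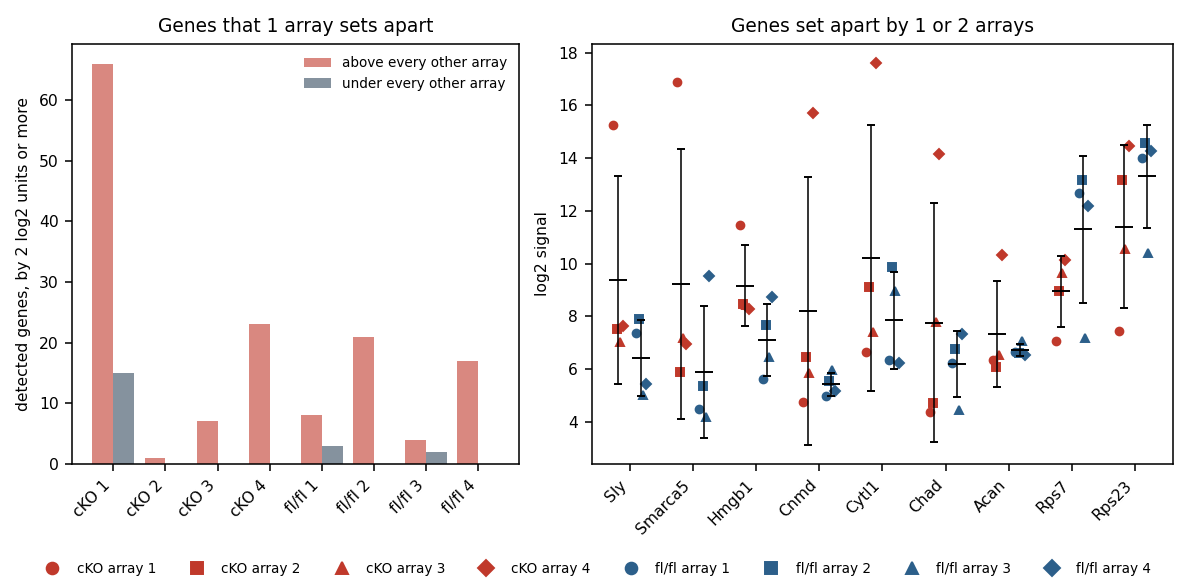
Left, the number of detected genes (vertical axis) that each array set at least 2 log2 units above or under all 7 others. Right, log2 signals of 9 genes that 1 or 2 arrays set apart, cKO to the left of fl/fl, with mean and SD. Array 1 of cKO had 66 genes above and 15 under, and Cnmd, Cytl1 and Chad were highest on cKO array 4.

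Of 13 fitted NP and notochord genes 5 were detected and all 5 had negative differences (median log2 difference -1.10, -1.37 without cKO array 2 and -0.56 without cKO array 1), with Cdh2 past the thresholds. Krt8, the simple-epithelial keratin of notochordal cells, read 4.77, 6.27, 6.65 and 7.36 on cKO arrays, against 7.48, 8.08, 6.65 and 6.96 on fl/fl arrays (log2 difference -1.03, unadjusted p by limma 0.0712, and -1.39, past the thresholds, without cKO array 4 and -1.11, past the thresholds, after quantile normalization). Car3, a carbonic anhydrase, read 4.07, 6.59, 6.22 and 5.93 in cKO and 5.86, 8.82, 7.25 and 5.30 in fl/fl, and Lgals3, a galectin, read 5.60, 6.72, 7.01 and 6.25 in cKO and 6.91, 8.84, 5.99 and 7.0 in fl/fl, with overlap in both. Slc2a1, given above, was the fifth. The mean over the 5 was 4.87, 6.32, 6.17 and 6.85 on cKO arrays 1 to 4 and 6.97, 8.22, 6.46 and 7.08 on fl/fl arrays 1 to 4. The notochord genes Krt18, Krt19, Noto and Shh were over background on at most 3 of 8 arrays, and Ncam1 on none. Whether NP tissue in the dissected annulus took part in this was not tested.

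In the BMP and TGF-beta list 7 of 49 fitted genes were detected, 1 past the thresholds in each direction (median log2 difference -0.05, -0.26 without fl/fl array 4 and 0.14 without fl/fl array 3). Smad4, the shared partner of the receptor-activated SMADs, read 4.49, 5.75, 4.63 and 5.49 on cKO arrays, against 6.18, 5.97, 5.85 and 6.53 on fl/fl arrays. It was not above background on any cKO array and was at least 1.31-fold lower there (measured log2 difference -1.04 ± 0.37, and -0.89 and no longer past the thresholds without cKO array 3). Bmp5, a secreted BMP, read 9.85, 7.22, 5.97 and 5.32 in cKO and 5.03, 5.97, 5.33 and 5.35 in fl/fl. Its difference of 1.67 ± 0.76 was 0.75 without cKO array 1 and was not past the thresholds without that array, cKO array 2 or any fl/fl array (1.54 to 1.86 for these), or with arrays centred on their medians. Of 11 detected ubiquitin-conjugating genes 2 were lower and none higher past the thresholds (median log2 difference -0.23, -0.45 without cKO array 4 and 0.11 without cKO array 1). Ube2d2a, a conjugating enzyme of broad use, read 4.94, 5.62, 5.29 and 5.10 in cKO and 5.85, 5.97, 6.19 and 6.85 in fl/fl, not above background on any cKO array and at least 1.39-fold lower there (measured log2 difference -0.98 ± 0.34, and -0.76 and short of the fold threshold without fl/fl array 4). Ube2r2, a partner of cullin ligases, read 5.89, 5.99, 5.91 and 6.83 on cKO arrays, against 7.60, 6.71, 6.59 and 7.50 on fl/fl arrays (log2 difference -0.95 ± 0.37, and -0.89 to -0.78 and not past the thresholds without cKO array 1, 2 or 3 or fl/fl array 1 or 4).

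Of 16 detected autophagy genes 10 had positive differences (median log2 difference 0.09, 0.01 without fl/fl array 1 and 0.35 without cKO array 1) and Nbr1, a cargo receptor related to p62, was past the thresholds. It read 6.42, 7.08, 5.96 and 6.59 in cKO and 3.99, 6.27, 3.80 and 6.35 in fl/fl, with fl/fl arrays 1 and 3 low and arrays 2 and 4 near the cKO values (log2 difference 1.41 ± 0.59, and 0.98 to 1.39 and not past the thresholds without cKO array 2 or 4 or without either of fl/fl arrays 1 and 3). Atg16l2, outside this list and chosen after its values were seen, was also higher past the thresholds, with overlap (log2 difference 0.86 ± 0.39). Of 16 detected ER and Golgi genes 10 had positive differences (median log2 difference 0.10, -0.14 without cKO array 4 and 0.48 without fl/fl array 4) and 2 were higher, Sec61g, given above, and Sar1a, the GTPase that starts COPII vesicles. Sar1a read 5.93, 5.53, 6.47 and 7.89 in cKO and 5.58, 5.17, 5.84 and 5.07 in fl/fl, and its difference of 1.04 ± 0.48 was 0.56 without cKO array 4 and was also lost without cKO array 3 or fl/fl array 1, 2 or 4 and after quantile normalization (0.98). Of 8 detected lysosomal genes 6 had positive differences (median log2 difference 0.31, 0.08 without cKO array 4 and 0.55 without cKO array 1), with 0 past the thresholds. With 1 array left out, up to 1 was higher past them (without cKO array 1) and up to 1 lower (without cKO array 2). Hmgb1, a chromatin protein that is released from senescent and damaged cells, was higher at 11.46, 8.46, 8.44 and 8.29 on cKO arrays, against 5.63, 7.67, 6.44 and 8.73 on fl/fl arrays. Its difference of 2.05 ± 0.77 was 1.28 without cKO array 1, and was not past the thresholds without that array or fl/fl array 1 or 3 (1.55 and 1.82).

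Of the proteins that the study stained or blotted, 13 transcripts were fitted, 5 were detected and none was past the thresholds. The list was taken from the study and is no independent evidence of direction. Il1b, the inflammatory cytokine, read 5.35, 7.71, 6.07 and 6.24 in cKO and 5.46, 6.14, 6.67 and 6.74 in fl/fl, a log2 difference of 0.09 that was -0.37 without cKO array 2 and -0.18 without fl/fl array 1. Map1lc3a, an autophagosome protein, read 5.32, 6.14, 7.37 and 6.92 in cKO and 6.28, 6.31, 6.55 and 6.97 in fl/fl (-0.09, and 0.28 without cKO array 1). Txnip, the thioredoxin-binding protein induced by glucose, read 5.98, 5.88, 9.75 and 8.77 on cKO arrays, against 5.48, 11.88, 5.42 and 7.15 on fl/fl arrays (0.11, and -0.61 without cKO array 3), with arrays more than 6 log2 units apart within fl/fl. Il6, Ccl2, Tgfb1 and H2ax were over background on none of the 8 arrays, Cdkn1a and Map1lc3b on 1, and Col1a2 and Col10a1 on 2. Of 6 detected secreted senescence factors Vegfa alone was past the thresholds, with 4 positive and 2 negative differences (median log2 difference 0.05, -0.18 without cKO array 4 and 0.25 without cKO array 1), and of 7 detected cell cycle arrest and p53 genes Hmgb1 alone, with 2 positive and 5 negative (median log2 difference -0.04, -0.14 without cKO array 2 and 0.15 without cKO array 1).

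Several lists had no detected member past the thresholds, and with 1 array left out at most 1 member of each passed in either direction. Among these were DNA glycosylases and base excision repair (4 detected of 17 fitted, median log2 difference -0.38, -0.49 without fl/fl array 3 and -0.26 without cKO array 1) and DNA and histone methylation enzymes (7 of 40, median log2 difference -0.03, -0.38 without fl/fl array 1 and 0.25 without fl/fl array 3). Ogg1, the 8-oxoguanine glycosylase, read 5.94, 5.43, 5.96 and 5.06 in cKO and 6.12, 5.78, 6.39 and 5.64 in fl/fl. So were collagen hydroxylases and crosslinkers (7 of 24, median log2 difference -0.36, -0.61 without cKO array 4 and -0.13 without fl/fl array 3). P3h1, a prolyl 3-hydroxylase of collagen, read 8.72, 6.89, 6.66 and 6.58 in cKO and 5.88, 6.39, 7.07 and 5.81 in fl/fl, where cKO array 1 alone stood above the fl/fl range. The same held for protein lipidation enzymes (6 of 32, median log2 difference -0.06, -0.32 without cKO array 4 and 0.25 without cKO array 1), necroptosis genes (2 of 22, median log2 difference 0.39, 0.15 without fl/fl array 2 and 0.67 without cKO array 1) and skeletal muscle myofibril genes (10 of 40, median log2 difference 0.07, -0.24 without cKO array 4 and 0.21 without cKO array 1). It held also for ABC transporters (4 of 38, median log2 difference 0.01, -0.23 without cKO array 3 and 0.23 without cKO array 1), matrix proteases and inhibitors (6 of 22, median log2 difference -0.20, -0.31 without cKO array 3 and -0.14 without cKO array 1) and small leucine-rich proteoglycans (3 of 15, median log2 difference 0.78, -0.42 without cKO array 4 and 1.42 without cKO array 1). Heat shock proteins and ER chaperones (8 of 34, median log2 difference 0.07, 0.03 without cKO array 3 and 0.54 without cKO array 1) and IGF and AKT genes (6 of 26, median log2 difference -0.11, -0.26 without cKO array 4 and 0.0034 without cKO array 1) were the last of these. In the list of sirtuins and histone deacetylases (6 of 21, median log2 difference 0.23, 0.02 without cKO array 4 and 0.60 without cKO array 3) Sap30bp was higher. In that of antioxidant genes (7 of 36, median log2 difference 0.11, -0.40 without fl/fl array 1 and 0.16 without cKO array 1) Cyb5r3 was lower, and in that of Hox genes (3 of 22, median log2 difference -0.11, -0.43 without cKO array 2 and 0.27 without cKO array 1) Hoxc10 was lower.

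Genes of other cells that annulus tissue could carry were mostly near background. None of 9 fitted osteoclast genes was detected, and 1 of 14 erythroid, 1 of 11 mural, 1 of 13 Schwann cell and neural, 2 of 10 endothelial, 2 of 12 osteoblast, 2 of 9 hypertrophic cartilage, 3 of 12 adipocyte, 4 of 19 macrophage and leukocyte and 5 of 16 neutrophil genes were. Past the thresholds among these was Vegfa, which the hypertrophic cartilage list also holds. The epidermis and hair list had 7 detected of 32 fitted genes (median log2 difference 0.11, -0.21 without cKO array 4 and 0.17 without fl/fl array 3) and 2 lower ones. Sbsn, a secreted epidermal protein, read 4.35, 7.04, 7.45 and 8.23 on cKO arrays, against 12.58, 7.89, 8.01 and 11.95 on fl/fl arrays, the largest difference in size among the detected genes past the thresholds, with fl/fl arrays 1 and 4 highest (log2 difference -3.34 ± 1.08). Krtdap, a keratinocyte protein, read 5.05, 6.21, 6.20 and 5.26 in cKO and 5.97, 6.90, 6.33 and 8.22 in fl/fl (log2 difference -1.17 ± 0.49, not past the thresholds without cKO array 1 or 4 or fl/fl array 2 or 4, at -1.16 to -0.72). The 7 genes averaged 5.41, 6.10, 6.19 and 6.44 on cKO arrays 1 to 4 and 6.51, 6.40, 6.59 and 7.11 on fl/fl arrays 1 to 4. The part of skin cells in these values was not tested.

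Some genes were read high on a single array of either genotype. On cKO array 1, Smarca5, the ATPase of ISWI chromatin remodelers, read 16.88 against 4.17 to 9.54 on the other 7 arrays, and Sly, a Y-linked gene of spermatids, read 15.27 against 5.01 to 7.91. On the same array Rps23, a small-subunit ribosomal protein, read 7.45 against 10.41 to 14.56. On cKO array 3, Mad2l1, a spindle checkpoint protein, read 12.38 against 6.85 to 8.05, and on cKO array 4, Hnrnpk, an RNA-binding protein, read 12.32 against 5.38 to 7.31. In fl/fl, Serinc3, a membrane protein, read 11.56 on array 1 against 4.2 to 6.99, and Nfe2l1, a transcription factor of proteasome genes, read 13.59 on array 2 against 5.50 to 9.15. Slc25a3, the mitochondrial phosphate carrier, read 10.99 on fl/fl array 3 against 5.29 to 7.47, Rpl31 read 3.80 there against 8.78 to 13.26, and Zfp346, a zinc finger protein that binds double-stranded RNA, read 12.28 on fl/fl array 4 against 5.57 to 8.25. The number of genes at least 2 log2 units above all other arrays was 66, 1, 7 and 23 on cKO arrays 1 to 4 and 8, 21, 4 and 17 on fl/fl arrays 1 to 4.

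Settings other than leaving out an array also ended calls of named genes. In 1 fit over the 16 arrays Vegfa, Eif4b, Rpl5, Cox5b and Sdhc were not past the thresholds, and Rps7 was. With array weights Bmp5 (1.16), Rpl5 (-0.89) and Cycs were not, with eBayes with trend Bmp5, Eif4b, Rpl5, Sar1a, Nap1l1 and Psph were not, and with only the detected genes fitted Bmp5, Eif4b, Rpl5 and Sar1a were not. Bmp5 also fell short with no filter on low signal. With the replicate block Rpl5, Cycs and Sar1a were not past the thresholds, and Rps7 and Slc2a1 were. Without cKO arrays 1 and 4 together, Krtdap, Smad4, Ube2d2a, Rpl5, Cox5b, Cycs, Hmgb1, Nbr1, Sar1a, Nap1l1, Psph and Cops8 were not.

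Whether the genotype difference of the annulus was particular to it was tested against the NP in 1 fit over 16 arrays. The fit treated the arrays as independent. No source used here states if AF and NP arrays came from the same animals, so a pairing of the tissues was not modelled. By limma the interaction called 0 genes after adjustment, the lowest adjusted p being 0.988, and 687 genes (4.12%) had a p under 0.05 before it. No AF difference was therefore shown to differ from that of the NP after correction. Of the genes with the lowest p in each direction, Tra2b differed by 2.24 in AF and -0.88 in NP (unadjusted limma p of the interaction 0.000257). Alg13 differed by -1.58 in AF and 0.33 in NP (unadjusted limma p of the interaction 0.000445). The log2 difference of Ppp1r3c was -2.47 in AF and 0.29 in NP (unadjusted limma p of the interaction 0.0685) and that of Cdh2 -1.16 in AF and 0.46 in NP (interaction p by limma 0.0102). Adgrd1 had 1.86 in AF and 1.62 in NP, and Cyb5r3 -2.79 in AF and -1.36 in NP, with unadjusted interaction p-values of 0.799 and 0.293.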

How the data were processed

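RNA of each AF sample was hybridised to a Clariom S mouse array. The deposited values are log2 signals that the authors made with SST-RMA (background correction, normalization and summary per probe set) in Expression Console, and the submitters' notes also name the Transcriptome Analysis Console. No source used here states if both tissues were normalized in 1 run. Arrays carry no read depth, and their number limits the precision. Of 28846 probe sets, 19572 had 1 symbol in the platform annotation. For a symbol with several, that with the highest mean over the 16 arrays was kept. Genes above the 40th percentile of their array on at least 4 of 16 arrays were fitted (16665). The methods name SAM on genes passing a detection call. Here limma (version 3.58.1 in R 4.3.3; lmFit and eBayes) was fitted to the 8 AF arrays, with Benjamini-Hochberg adjustment over all fitted genes, and SAM was an alternative. Replicates were animals, and errors after ± are standard errors unless named SD. The study's thresholds were applied: p before adjustment up to 0.05 and a log2 difference from 0.81 up in size. The script was tested on simulated data.

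The members and the 43 gene lists were chosen with earlier results of these data known. Named genes were Sirt6, the proteins stained or blotted in the study, the 12 detected genes per direction with the lowest p past the thresholds, up to 4 detected members per list with the lowest p, and up to 5 per array with the largest gap to the other arrays; predicted genes were left out. Genes outside this rule are said to have been chosen after their values were seen, as were cartilage genes described together on cKO array 4. Alternatives were other filters and detection rules, quantile normalization, median centring, array weights, eBayes with trend, 1 fit over 16 arrays, a replicate block, every named probe set and each array left out. Leaving out cKO arrays 1 and 4 together was added after seeing the data.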

Additional observations from a re-analysis of the deposited data

Results flagged for a closer look

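Over 218 groups of 4 arrays examined, 16 (7.34%) held an array whose gap to the nearest other array exceeded Dixon's critical value, as a share of the range of the group. Chance flags about 1 in 20 groups, but several of these genes were named because 1 array stood apart, so the share is not set against chance. Array 1 of cKO held 5 of these. It read 11.5 for Hmgb1 (8.29 to 8.46 on the other cKO arrays), 15.3 for Sly (7.04 to 7.64) and 16.9 for Smarca5 (5.90 to 7.19). It correlated at 0.491 with the average of the remaining AF arrays (0.765 to 0.806 for the other cKO arrays), and it held 15 genes at least 2 log2 units under every other array (0 on each other cKO array).

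On cKO array 4, Acan read 10.3 (6.08 to 6.52 on the other cKO arrays), Cnmd 15.7 (4.74 to 6.46) and Ube2r2 6.83 (5.89 to 5.99), and the mean of the glycolysis and hypoxia response genes was 7.79 (6.26 to 6.39). On cKO array 3, Zfp992 read 9.64 (7.96 to 8.03) and Mad2l1 12.4 (7.02 to 7.51). In fl/fl, array 3 read 7.17 for Rps7 (12.2 to 13.2 on the other fl/fl arrays) and 10.4 for Rps23 (14.0 to 14.6), array 1 read 11.6 for Serinc3 (4.2 to 5.11) and 10.96 for Elp4 (5.76 to 6.43), and array 4 read 5.13 for Sirt6 (4.49 to 4.59). What set these arrays apart was not tested.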

How the results depend on the processing

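The count of genes at an adjusted p under 0.05 was 0 under every alternative run, for the genotype difference and for the interaction. The count of genes past the thresholds, 590, was 122 where only detected genes were fitted and 591 to 805 with 1 array left out. It was highest, 864, in 1 fit over the 16 arrays, where 240 detected genes passed. The count of detected genes past the thresholds, 165, was 40 with detection at 2 log2 units, 85 with detection on 6 or more arrays, 91 with detection on 2 or more arrays of each genotype, and 140 to 266 with 1 array left out (89 to 126 of these shared with the 165). The percent higher, 65.5, was 49.7 after quantile normalization, 73.3 with array weights, 57.5 with detection at 2 log2 units, 76.9 without cKO arrays 1 and 4, and 52.1 to 83.3 with 1 array left out. The Sirt6 difference was -0.73 to -0.23 with 1 array left out (exact permutation p = 0.0286 without cKO array 3). Equal replicate numbers showed no sign of pairing (correlations of deviations 0.035, -0.031, -0.045 and 0.081, none best with its own number). With the replicate block 673 genes and 217 detected genes passed, 60.4% of these higher, and Sirt6 was at -0.50 (p = 0.375, exact permutation). Some differences changed sign. With 1 array left out, Acan spanned -0.39 to 1.03, Chad -0.58 to 2.68 and Cytl1 -0.11 to 3.53, each lowest without cKO array 4 and, for Chad and Cytl1, highest without cKO array 1. Il1b spanned -0.37 to 0.42 (-0.18 without fl/fl array 1), Txnip -0.61 to 1.58 (-0.28, -0.56 and -0.57 without cKO array 4 and fl/fl arrays 1 and 3) and Map1lc3a -0.40 to 0.28 (0.0054 without cKO array 2, 0.055 without fl/fl array 4). Without cKO arrays 1 and 4 Acan was -0.41 and Map1lc3a 0.23, and with array weights Map1lc3a was 0.0815. The causes were not tested. Few detected genes were far above background, which limits what these arrays show.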
